A study of Sus scrofa with 8 samples.

Results

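The 4 ERBB receptors EGFR, ERBB2, ERBB3 and ERBB4 and the ligand NRG1 (neuregulin 1) were followed in 8 single-cell RNA libraries of pig (Sus scrofa) embryos. Each of the 5 genes was chosen by its symbol, and each had 1 row among the 21301 rows of every count matrix. Somites were taken on embryonic days (E) 16, 18 and 21, and on day 28 the myotome, from which skeletal muscle forms. Each day had 1 library from Tibetan pigs (ZZ) and another from the Duroc × Tibetan cross (DZ), and every library pooled 5 embryos from 1 sow. No stage of a breed had a second library, so tests ran over libraries of several stages. The p-values of stage and breed tests rest on the spread between these pools. Those between cell types rest on the spread left after each library's own level was taken out.

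ERBB receptors are tyrosine kinases that signal as pairs. EGFR binds EGF-type ligands, ERBB3 and ERBB4 bind neuregulins, and ERBB2 binds no known ligand and serves as the partner of the others. ERBB3 has little kinase activity of its own and depends on its partner, and in the embryo it is known as the neuregulin receptor of neural crest and Schwann cell precursors. NRG1, made by neurons among other cells, is known for its part in Schwann cell, heart and muscle spindle development.

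The weak kinase of ERBB3 can be read in its gene, so the 30 coding bases around the catalytic loop of each receptor are given here 5′ to 3′ from RefSeq on Sscrofa11.1. Capitals mark the codon of the catalytic-loop residue that is aspartate in active kinases and asparagine in ERBB3.
ERBB3: gtgcacaggAACctggctgcccgaaatgtg
ERBB2: gtgcacaggGACctggctgcccgcaacgtg
EGFR: gtgcaccgaGACctggcggccaggaatgtg
ERBB4: gttcatcggGATttagcagcccgtaatgtc
Each stretch lies within 1 coding exon: ERBB3 at chr5:21490611-21490640 on the plus strand, ERBB2 at chr12:22594956-22594985 on the minus strand, EGFR at chr9:139465062-139465091 on the plus strand and ERBB4 at chr15:114022402-114022431 on the minus strand. The genes of ERBB3 and ERBB2 span 20823 and 29764 bases, EGFR spans 172223 bases, and ERBB4 and NRG1, both on chromosome 15, span 1130412 and 1062454 bases.

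After filtering, 74147 cells remained, 5436 to 10956 per library, with a median of 3405 to 6160.5 UMIs (distinct RNA molecules counted) per cell. The mitochondrial limit removed 39.2% of the barcodes of the E16-ZZ library and 1.05% to 9.15% of the others, and pairs of libraries shared 23 to 49 barcode sequences. Cells were sorted by marker genes into 16 types, here called gates, none of which used an ERBB gene or NRG1. Of all cells, 52.3% met no gate and 4.4% met several, and these were left out of the comparisons between types. The macrophage-like gate held 54 cells and was not compared, and the other 15 gates gave 90 sums of at least 20 cells of 1 gate in 1 library. Among the markers that define the gates, FOXD3 was at 0 in 5 of the 8 neural crest and glial-like sums, whose SOX10 ranged from 196 to 519 CPM (counts-per-million UMIs) before scaling. MYOG ranged from 44.8 to 47.1 CPM in the 2 E18 sums of the myocyte-like gate against 152 to 341 CPM at E21 and E28.

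The row named ERBB3 was far higher than those of the other receptors and was present in every gate. Over all cells it held 373991 UMIs and was found in 93.6% of the 74147 cells, rank 123 of 21301 rows. ERBB2 was found in 11.4%, EGFR in 8.84%, NRG1 in 2.08% and ERBB4 in 0.38%. To set cells of unequal depth side by side, each was thinned at random to 2000 UMIs, and shallower cells were left out. In thinned cells the row named ERBB3 had a UMI in 74.5% to 88.1% of the cells of a library, against 3.97% to 6.54% for ERBB2, 1.70% to 8.76% for EGFR, 0.40% to 1.64% for NRG1 and 0.04% to 0.61% for ERBB4.

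No gate lacked the row named ERBB3. Its summed level, in CPM with library totals scaled by TMM, averaged 1267 ± 222 (SD, n = 6) in myocyte-like, 1208 ± 304 (n = 8) in erythroid-like and 1136 ± 162 (n = 8) in neural crest and glial-like cells at the upper end. At the lower end it averaged 724 ± 165 (n = 6) in neural progenitor-like and 519 ± 210 (n = 7) in neuron-like cells. The highest of the 15 gate means was 2.44 times the lowest. Of the 14 pairs of neighbours in this order, 0 differed by more than the larger of their SDs. The 90 sums ran from 266 to 1537 CPM, and 0 of them was at 0. The place of erythroid-like cells in this order depended on the TMM scaling, as given with the tests below. Their share of thinned cells with a UMI, a mean of 59.4% over 8 libraries, was the lowest of the 15 gates.

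**Figure D1:**
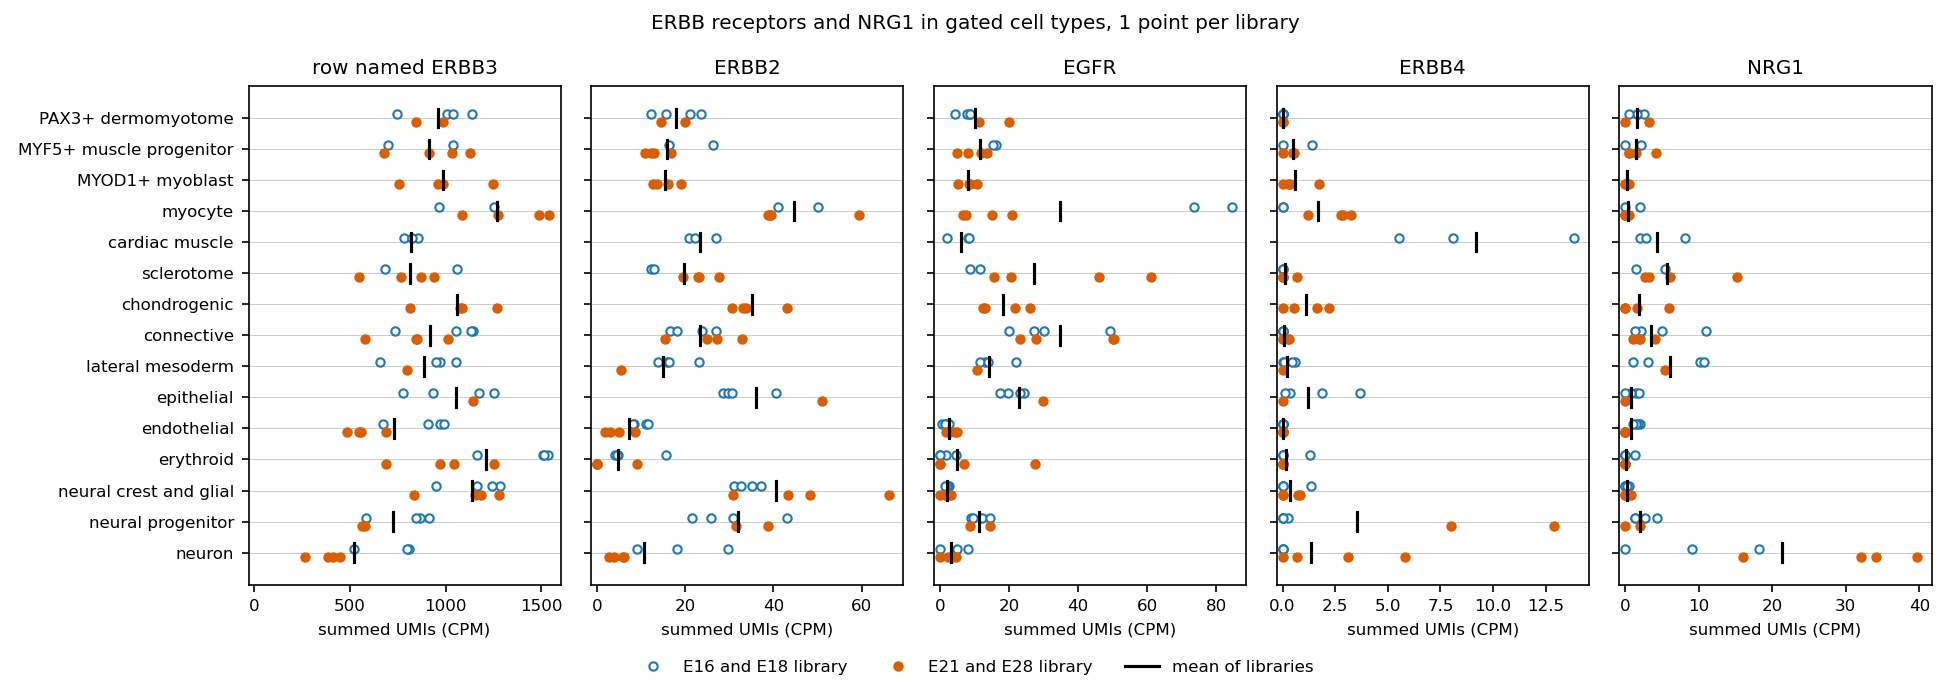
Summed level (CPM, linear axes that differ between panels) of the row named ERBB3, of ERBB2, EGFR, ERBB4 and NRG1 in 15 gated cell types. Each point is 1 library, open for E16 and E18 and filled for E21 and E28, and the black bar is the mean of the libraries; the row named ERBB3 lies between 266 and 1537 CPM in all 90 sums, while the other panels have gates at or near 0.

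Droplets gated as red blood cells, which are not known for ERBB3, also held UMIs of the row. Free RNA was not measured, and its part in these UMIs was not tested. In erythroid-like cells, gated by ALAS2, AHSP, GATA1, SLC4A1 or KLF1, 533 of 834 thinned cells had a UMI of it, which is 63.9% (exact 95% interval 60.5% to 67.2%, counting error only). The share per library ran from 32.5% to 78.1%, with a median depth of 3780 to 13194 UMIs per cell. The same 834 cells held ERBB2 in 5 (0.60%, interval 0.19% to 1.39%), EGFR in 1, and NRG1 and ERBB4 in 0. A count of 0 in 834 cells allows a share of cells with a UMI of up to 0.36%, taken as 3 counts of 834 (the exact interval ends at 0.44%). In neural crest and glial-like cells, a known site of ERBB3, the row had a UMI in 86.3% to 96.0% of the thinned cells of a library, at a median depth of 4063 to 8812.5 UMIs. In neuron-like cells the share ran from 47.8% to 91.7%. The share in neural crest and glial-like cells and the share in connective tissue-like (72.4% to 88.9%) or epithelial-like cells (81.3% to 90.6%) overlapped. The study also cites a role of ERBB3 and NRG1 in myogenic progenitors. Its own prediction of cell interactions names ERBB3 among the main genes between myogenic and non-myogenic cells. The part of the row named ERBB3 in that prediction was not examined here. The share was 77.3% to 90.4% in PAX3+ dermomyotome-like and 77.6% to 93.3% in MYF5+ muscle progenitor-like cells.

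**Figure D2:**
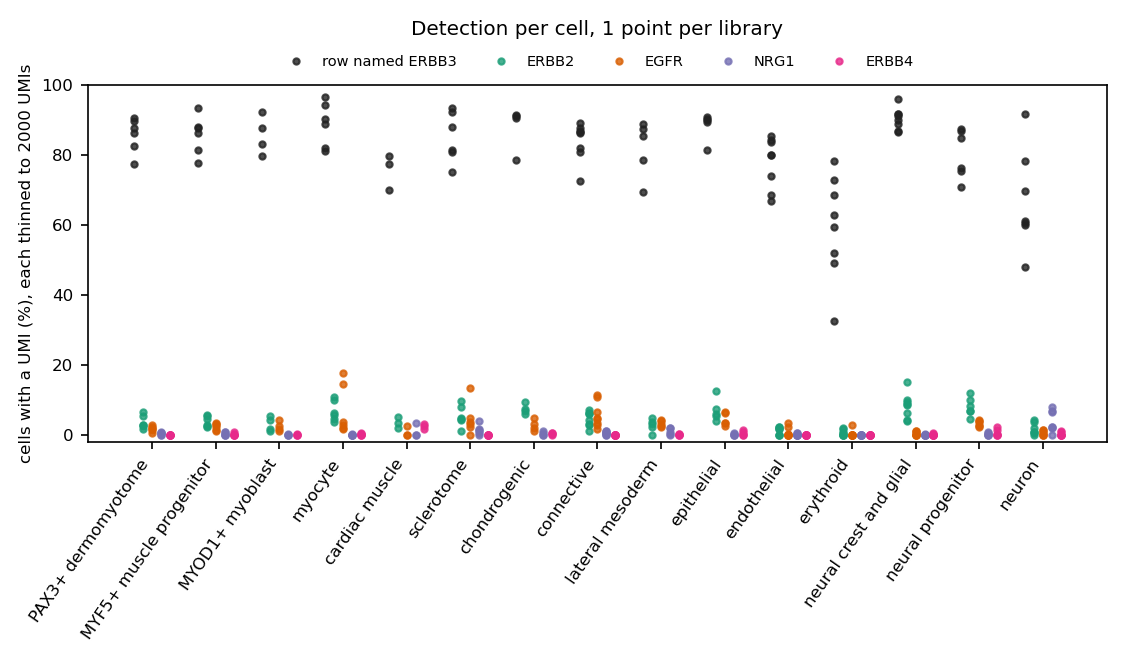
Share of cells with at least 1 UMI (%), each cell thinned to 2000 UMIs, in 15 gated cell types, 1 point per library and a colour per gene. The row named ERBB3 lies between 32.5% and 96.4% in every gate and library, and the highest point of any other gene is 17.6%, EGFR in the myocyte-like cells of 1 E18 library.

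The place of the row in the genome bears on what it counts. RefSeq puts RPS26, which encodes a protein of the small ribosomal subunit, at chr5:21431656-21433691 and ERBB3 at chr5:21474218-21495040, with 40526 bases between them. The matrices have no row named RPS26. In the study's annotation of its open-chromatin peaks, the gene model with the identifier of this row, ENSSSCG00000020725, starts at the first base of RPS26 and holds all of RPS26 and all of ERBB3. The counts used an Ensembl release 98 annotation, whose model of this gene was not examined here. PA2G4, which starts 956 bases past the end of ERBB3, has a row of its own. Under a model of that extent, UMIs of RPS26 and of ERBB3 RNA cannot be told apart, so the level is given as that of the row named ERBB3. The libraries read the 3′ ends of transcripts, and RefSeq ends RPS26 at 21433691 and ERBB3 at 21495040, past the coding bases of each. The last 30 coding bases of the 2 genes are shown with the stop codon in capitals.
RPS26: gccccacgacctccaccaaagcccatgTAA
ERBB3: ttccccaaggctaatgcccagagaacaTAA
The RPS26 stretch lies at chr5:21433592-21433621 and the ERBB3 stretch at chr5:21493883-21493912, both on the plus strand.

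The rows whose levels were most like that of the row named ERBB3 were ribosomal. Over the 90 sums and 11824 rows, Pearson's r of log2 CPM was 0.84 with RPS9, 0.84 with RPL6 and 0.82 with RPL7, all genes of ribosomal proteins. The next rows in this order were ENSSSCG00000033262 (r = 0.82; the reference name table gives it the symbol CD74) and ENSSSCG00000035811 (r = 0.81), neither of which has a symbol in the matrices. Of the 50 most similar rows, 32 carried the symbol of a ribosomal protein gene. The 51 such genes tested had a median r of 0.73, against -0.02 over all rows. SOX10, the defining factor of neural crest, had an r of 0.23 and PA2G4 one of 0.56. These correlations share libraries and depth between their points and are descriptions over sums.

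Set against the ribosomal protein genes, the row named ERBB3 stood higher in neural crest and glial-like cells. Its log2 CPM minus the mean log2 CPM of the 51 genes was 0.39 ± 0.11 (SD, n = 8 libraries) above the mean of the other gates, and it was higher in 8 of 8 libraries. The exact two-sided sign-flip permutation test over libraries gave p = 0.00781, the smallest it allows with 8, and 0.0586 after adjustment over the 15 gates. In myocyte-like cells the same difference was 0.25 ± 0.07, higher in 6 of 6 libraries (exact permutation p = 0.0313, the smallest possible, adjusted 0.0837). It was lower by the same measure in 7 of 7 neuron-like (mean -0.27 ± 0.13) and 8 of 8 endothelial-like sums (mean -0.26 ± 0.13), with adjusted exact p = 0.0781 and 0.0586. No gate passed 0.05 after adjustment, and the list of ribosomal genes was chosen after the row's neighbours had been seen.

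**Figure D3:**
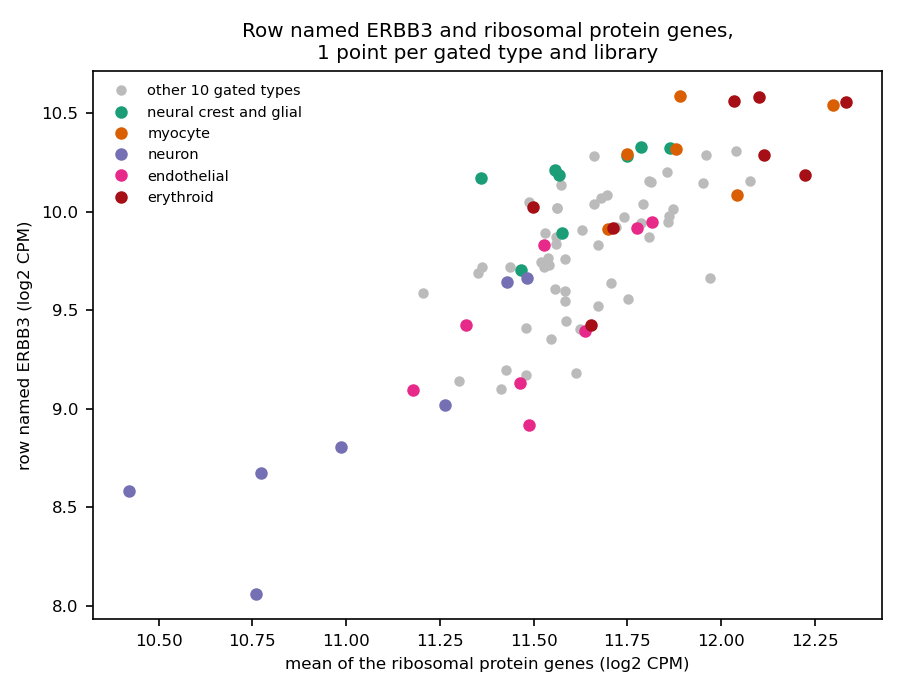
Level of the row named ERBB3 (log2 CPM) against the mean level of 51 ribosomal protein genes (log2 CPM), 1 point per gated type and library, with 5 gates coloured. The points rise together from the neuron-like sums at the lower left to myocyte-like and erythroid-like sums at the upper right, and the 8 neural crest and glial-like points lie on the upper side of the cloud.

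Tested without that reference, each gate against the mean of the other 14 with library as a block, the row named ERBB3 fell in neuron-like cells by 0.87 ± 0.08 (log2, SE, edgeR adjusted p = 1.2e-15). In that comparison 56.4% of the 11824 rows tested were called. It rose in myocyte-like cells by 0.66 ± 0.07 (adjusted p = 5.8e-12, 40.5% of rows called) and in neural crest and glial-like cells by 0.36 ± 0.07 (adjusted p = 1.3e-05, 24.1% called). Other rises were called in chondrogenic-like (0.43, 20.6% of rows called) and MYOD1+ myoblast-like cells (0.32, 14.1% called), and falls in endothelial-like (-0.36, 48.7% called), neural progenitor-like (-0.47, 36.4% called) and cardiac muscle-like cells (-0.48, 19.4% called). The MYOD1+ rise was lost without E28-ZZ or E28-DZ (adjusted p = 0.0594 and 0.134), and the MYOD1+, chondrogenic-like, cardiac muscle-like and neural progenitor-like calls were lost without the library block (adjusted p = 0.785, 0.342, 0.685 and 0.0559). Between neural crest and glial-like cells and the mean of the 4 myogenic gates the difference was 0.08 ± 0.08 and was not called (adjusted p = 0.51, 27.9% of rows called). In erythroid-like cells the fitted rise of 0.43 (adjusted p = 1.6e-07, 52.8% called) depended on the scaling, since without TMM these cells held 0.32 to 0.85 times as large a share of the row's UMIs as of all UMIs.

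The share of the row's UMIs in the myogenic gates was set beside the share of all UMIs there. From the first to the last stage, the 4 myogenic gates together held 1.70%, 6.35%, 11.03% and 17.4% of them in the ZZ libraries and 2.06%, 6.83%, 10.9% and 30.4% in the DZ libraries. The same gates held 1.54% to 24.8% of all UMIs, and the ratio of the 2 shares ran from 1.02 to 1.22. In neural crest and glial-like cells the ratio ran from 1.19 to 1.47, in neuron-like cells from 0.45 to 0.92. Cells outside every gate held 44.8% of the row's UMIs.

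ERBB2, the shared partner of the family, was a low and broad gene with a 9.48-fold range between gate means. It averaged 44.7 ± 8.38 CPM (SD, n = 6) in myocyte-like and 40.5 ± 12.0 (n = 8) in neural crest and glial-like cells, followed by epithelial-like (36.1 ± 9.66, n = 5), chondrogenic-like (35.1 ± 5.50, n = 4) and neural progenitor-like cells (31.9 ± 7.97, n = 6). Between this last gate and the next, cardiac muscle-like cells at 23.3 ± 3.26 (n = 3), lay the single gap of 14 that exceeded the larger SD. Neuron-like, endothelial-like and erythroid-like cells were lowest at 10.7 ± 9.77, 7.18 ± 3.59 and 4.72 ± 5.41 CPM.

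ERBB2 rose against the other gates in 6 of 15. The edgeR differences were 1.31 ± 0.17 (log2, SE, adjusted p = 1.4e-09) in myocyte-like, 1.18 ± 0.15 (adjusted p = 6.9e-10) in neural crest and glial-like, 1.00 in chondrogenic-like, 0.86 in epithelial-like (21.4% of rows called), 0.73 in neural progenitor-like and 0.41 in connective tissue-like cells (27.3% of rows called). It fell in neuron-like cells by 1.56, in endothelial-like by 1.30 and in erythroid-like by 1.81, all with adjusted p of at most 8.5e-06. The connective tissue-like rise (adjusted p = 0.043) was lost without E16-ZZ, E21-ZZ, E28-ZZ or E28-DZ (adjusted p = 0.0626 to 0.267). Within the muscle lineage ERBB2 was highest in the myocyte-like gate. It averaged 17.9 ± 4.35 CPM in PAX3+ dermomyotome-like, 15.9 ± 5.63 in MYF5+ muscle progenitor-like and 15.3 ± 2.88 in MYOD1+ myoblast-like cells, and the steps between these were not called (-0.22 ± 0.28 with 0.947% of rows called, and -0.05 ± 0.31 with 0.575% called). From MYOD1+ to myocyte-like cells it rose by 1.58 ± 0.30 (adjusted p = 3.4e-05, 17.2% of rows called). The 6 myocyte-like sums ran from 38.9 to 59.4 CPM and the 4 MYOD1+ sums from 12.6 to 19.02, so the gates did not overlap. ERBB2 was also higher in neural crest and glial-like cells than in the mean of the myogenic gates, by 0.98 ± 0.17 (adjusted p = 3.4e-06). The row named ERBB3 differed by 0.32 ± 0.12 between MYOD1+ and myocyte-like cells (adjusted p = 0.0568), and in a fit of the 4 myogenic gates alone it rose by 0.39 ± 0.07 (adjusted p = 1.3e-04). From MYOD1+ to myocyte-like sums the mean log2 CPM of the ribosomal protein genes rose too. It went from 11.63 to 11.88 in E21-ZZ, 11.86 to 12.30 in E21-DZ, 11.75 to 12.04 in E28-ZZ and 11.66 to 11.89 in E28-DZ. Relative to that mean the row went from -1.72 to -1.56, -1.91 to -1.76, -2.19 to -1.96 and -1.38 to -1.30 in the same order. This step relative to the ribosomal mean was not tested.

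EGFR, the receptor of EGF, TGFA and HBEGF, was highest in connective tissue-like cells, at 34.8 ± 12.9 CPM (SD, n = 8), with all 8 libraries between 19.99 and 50.3. The myocyte-like mean was close, 34.7 ± 34.8 (n = 6), but with a spread as large as itself, described with the stages below. Sclerotome-like cells, the precursors of vertebrae, averaged 27.3 ± 21.3 (n = 6) and epithelial-like cells 22.9 ± 4.77 (n = 5). At the other end stood neuron-like (3.35 ± 2.88, n = 7), endothelial-like (2.52 ± 1.57, n = 8) and neural crest and glial-like cells (1.99 ± 1.00, n = 8). In thinned cells EGFR had a UMI in 7 of 1625 neural crest and glial-like cells (0.43%, exact interval 0.17% to 0.89%), a share whose interval overlaps that of the 1 in 834 of erythroid-like cells (0.12%, interval 0.0030% to 0.67%). Of the 14 neighbouring pairs in the order of EGFR, 0 differed by more than the larger SD.

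EGFR rose against the other gates in connective tissue-like cells by 2.05 ± 0.24 (log2, SE, edgeR adjusted p = 2.7e-11), in myocyte-like by 1.69 ± 0.31 (adjusted p = 4.0e-06), in epithelial-like by 1.36 and in sclerotome-like cells by 1.33 (adjusted p = 0.0047, 11.1% of rows called). The rise of 1.09 in chondrogenic-like cells (adjusted p = 0.024) was lost without E21-DZ, E28-ZZ or E28-DZ (adjusted p = 0.0566, 0.115 and 0.0640). EGFR fell in neural crest and glial-like cells by 2.36 ± 0.44 (adjusted p = 1.4e-05), in endothelial-like by 2.39, in neuron-like by 1.42 and in erythroid-like by 1.89. The neuron-like fall was lost without E21-ZZ (adjusted p = 0.0648), and the erythroid-like fall without E16-DZ or E18-DZ (0.0629 and 0.0550). ERBB2 and EGFR thus moved apart in neural crest and glial-like cells, where ERBB2 rose and EGFR fell, and both rose in myocyte-like, connective tissue-like, epithelial-like and chondrogenic-like cells. In myocyte-like cells the EGFR mean was 79.0 CPM over the 2 early and 12.6 over the 4 late sums. Over the 90 sums the r of ERBB2 and EGFR was 0.48, the most positive of the 10 pairs, as a description.

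ERBB4, the other neuregulin receptor with an active kinase and the receptor known from developing heart muscle, was nearly absent outside a few gates. All 15 gates together held 161 UMIs of it, and 53 of the 90 sums held 0. Cardiac muscle-like cells, gated by MYBPC3, NKX2-5 and TNNI3, had 8.10 and 5.55 CPM in the ZZ libraries of E16 and E18 and 13.9 CPM in the DZ library of E16, a mean of 9.17 ± 4.26 (SD, n = 3), with 19 UMIs in all. In thinned cells 7 of 258 had a UMI (2.71%, exact interval 1.10% to 5.51%). The gate was the single place in the order of ERBB4 where the gap to the next gate exceeded the larger SD. PAX3+ dermomyotome-like and endothelial-like cells held 0 UMIs of ERBB4, 0 of 828 and 0 of 1855 thinned cells, and by the same limit of 3 counts the shares may be up to 0.36% and 0.16% (exact intervals to 0.44% and 0.20%). Neural progenitor-like cells averaged 3.53 ± 5.58 CPM, myocyte-like 1.69 ± 1.48, neuron-like 1.37 ± 2.27 and epithelial-like cells 1.20 ± 1.58. ERBB4 passed the filter on low counts through few high sums, not passing without E21-ZZ or E21-DZ. It did not pass without E16-ZZ, E16-DZ or E18-ZZ either, the libraries that gave the cardiac muscle-like sums. For this reason no test or fold of it against the other gates is given.

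NRG1, the ligand, was highest in neuron-like cells. These averaged 21.3 ± 14.5 CPM (SD, n = 7) and held 524 of the 1026 NRG1 UMIs of the 15 gates, and the gap to the next gate, lateral mesoderm-like cells at 6.05 ± 4.25 (n = 5), exceeded the larger SD. In the ZZ libraries the neuron-like level was 18.2, 34.2 and 32.1 CPM from E18 on, and in the DZ libraries, stage by stage, 0 (E16, 26 cells), 9.02, 39.7 and 16.0 CPM. The E16-DZ sum was so small that its count of 0 allows a level of up to 14.8 CPM (3 UMIs). In thinned cells 190 of 2939 neuron-like cells had a UMI (6.46%, exact interval 5.60% to 7.41%), against 0 of 834 erythroid-like cells. NRG1 was higher in neuron-like cells than in the other gates (edgeR adjusted p = 2.2e-19). No fold is given, since these include erythroid-like cells with a single UMI in all.

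Outside neurons, NRG1 was called higher in lateral mesoderm-like (adjusted p = 5.0e-04, 14.2% of rows called) and in sclerotome-like cells (5.70 ± 4.98 CPM, n = 6, adjusted p = 0.047). The sclerotome-like rise was lost without E18-DZ, E21-ZZ, E28-ZZ or E28-DZ (adjusted p = 0.0551 to 0.219). The 3 gates with the highest means of the row named ERBB3, erythroid-like cells among them through the TMM scaling, held almost no NRG1. Low NRG1 was not particular to them. It averaged 0.23 ± 0.28 CPM in MYOD1+ myoblast-like, 0.78 ± 0.89 in endothelial-like and 0.80 ± 0.83 in epithelial-like cells. Erythroid-like cells averaged 0.16 ± 0.46 CPM from 1 UMI. Neural crest and glial-like cells averaged 0.25 ± 0.30 CPM from 4 UMIs and myocyte-like cells 0.43 ± 0.81 from 3, and these last were both called lower than the other gates (adjusted p = 0.014 and 0.030). Both calls were lost without E16-DZ (adjusted p = 1.0), where the erythroid-like sums then held 0 UMIs and the mean of the logs had no finite value. The myocyte-like call was lost without E21-ZZ, E21-DZ or E28-ZZ too (adjusted p = 0.0764 to 0.0879). Over the 90 sums NRG1 had an r of -0.48 with the row named ERBB3, the most negative of the 10 pairs, as a description. The row followed the ribosomal protein genes, whose mean log2 CPM was lowest in the late neuron-like sums (10.42 to 10.99). The part of this in the r was not tested. Of 75 member tests over the 15 gates, 37 were called, 24 upward (5 of them ERBB4, from which nothing is read) and 13 downward, where 6.37% to 56.4% of all rows were called in the same 15 comparisons. MYF5+ muscle progenitor-like (14% of rows called) and PAX3+ dermomyotome-like cells (6.37% called) were the gates in which 0 of the 5 genes was called.

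By likeness of pattern over the 90 sums, the 5 genes closest to NRG1 were APLP1 (r = 0.68), VGF (0.68), NEFL (0.67), DISP3 (0.66) and ENSSSCG00000032197 (0.66). Closest to ERBB2 were AASS (0.77), GPC1 (0.76) and SERPING1 (0.74). Closest to EGFR were PCSK5 (0.68), DSE (0.66) and MEST (0.66), and closest to ERBB4 were LYNX1 (0.60), CTNNA3 (0.59) and HS6ST2 (0.58).

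Among the other ligands, HBEGF, an EGFR and ERBB4 ligand, was highest in endothelial-like (47.3 ± 28.8 CPM, n = 8) and epithelial-like cells (32.7 ± 16.2, n = 5), with edgeR differences of 1.75 and 1.77 (log2) from the other gates (adjusted p = 1.1e-13 and 3.8e-09). NRG3, an ERBB4 ligand, averaged 5.96 ± 3.51 CPM in neuron-like and 3.53 ± 2.69 in epithelial-like cells. It averaged 3.27 ± 1.34 CPM in neural crest and glial-like and 1.17 ± 1.19 in endothelial-like cells. TGFA, an EGFR ligand, averaged 6.74 ± 4.41 CPM in epithelial-like and 9.23 ± 14.5 in neural crest and glial-like cells. The 8 sums of the latter ran from 1.10 to 43.5 CPM. Both genes had gates at 0, so no test or fold of them against the other gates is given. NRG4 was at 21.0 ± 4.43 CPM in cardiac muscle-like and 20.6 ± 6.72 in myocyte-like cells, where it rose by 1.53 ± 0.37 and 1.04 ± 0.22 (log2), and it fell in neuron-like cells by 2.29 and in endothelial-like cells by 1.64. EGF, AREG, EREG and NRG2 averaged at most 2.46 CPM in any gate and did not pass the filter on low counts in the comparisons between gates.

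The rest of the pathway was counted from 3 lists of genes. Of the 9 adaptors and kinases tested, 5 rose and 2 fell in neuron-like cells (56.4% of all rows called), where GRB2, the adaptor that links receptors to RAS, rose by 1.01 ± 0.09 (log2, SE) and GAB1, a docking protein, fell by 1.27 ± 0.21. In neural crest and glial-like cells (24.1% called) 2 rose and 2 fell, with the kinase SRC up by 1.21 ± 0.15. In myocyte-like cells (40.5% called) 2 rose and 1 fell, with GRB2 up by 0.94 ± 0.10, a share no larger than that of all rows. In endothelial-like cells (48.7% called) 4 rose and 1 fell, with the adaptor SHC1 up by 3.004 ± 0.11. Of the 6 genes tested that restrain the receptors, 3 rose and 0 fell in neural crest and glial-like cells: LRIG1, which promotes receptor breakdown, by 1.08 ± 0.22, the phosphatase PTPN12 by 0.76 and the ubiquitin ligase CBL by 0.43. In myocyte-like cells 0 rose and 2 fell, PTPN12 by 0.71 and CBL by 0.43. In endothelial-like cells 3 rose and 2 fell, with PTPN12 up by 1.61 ± 0.10 and LRIG1 down (-1.50 ± 0.32). Of the 4 proteases that shed ligands or receptors, all rose in endothelial-like cells, between 0.52 for BACE1 and 1.46 for ADAM19. ADAM10 and ADAM17 rose in neural crest and glial-like cells by 0.64 and 0.56, while ADAM19 fell there by 0.87 and rose in myocyte-like cells by 0.69. The median difference of the adaptors was 0.58 in neuron-like cells against 0.01 over all rows, and that of the restraining genes was 0.32 in neural crest and glial-like cells against 0.00. BTC and AKT1 have no row by these symbols.

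Between stages, EGFR was the single member called in whole libraries. Stage by stage, its level was 16.8, 11.4, 15.5 and 40.2 CPM in the ZZ libraries and 11.8, 12.2, 18.0 and 35.7 CPM in the DZ libraries. The E28 libraries stood above the others, and those of E21 overlapped the E16 and E18 range. Late libraries (E21 and E28) exceeded early ones (E16 and E18) by 1.07 ± 0.33 (log2, SE, edgeR adjusted p = 0.039), in a comparison in which 34.4% of 14683 rows were called. The call was lost in 6 of the 8 fits that left out 1 library (all but those without E21-ZZ or E21-DZ, adjusted p = 0.0578 to 0.131) and without both E28 libraries, where the difference was 0.38 (adjusted p = 0.240). Connective tissue-like cells, the gate with the most EGFR, were 1.42% of E16, 1.11% of E18, 8.81% of E21 and 31.0% of E28 cells. Within that gate the difference was 0.39 ± 0.34 (adjusted p = 0.46, 20.8% of 10062 rows called). A larger share of such cells and more RNA per cell cannot be told apart in the sum of a whole library. ERBB4 (1.79 ± 0.70, adjusted p = 0.079), NRG1 (0.26 ± 0.47), ERBB2 (0.12 ± 0.16) and the row named ERBB3 (-0.31 ± 0.20) were not called. ERBB4 was called higher without E28-ZZ (2.14, adjusted p = 0.0261), without both E28 libraries (2.55, adjusted p = 0.0147) and with DESeq2 (1.81, adjusted p = 0.0419), and the row named ERBB3 was called lower without E18-DZ (-0.49, adjusted p = 0.0396). Both E16 matrices were made with another version of the counting software, and E28 is another tissue, so stage cannot be told apart from version at E16 or from tissue at E28.

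Within myocyte-like cells EGFR went the other way. It was at 73.6 CPM in E18-ZZ (34 UMIs in 55 cells) and 84.4 in E18-DZ (42 UMIs in 87 cells). The later sums were 21.0 and 6.68 CPM in the ZZ libraries and 15.1 and 7.60 CPM in the DZ libraries. All 4 later sums were below both E18 sums. In thinned cells the share with a UMI was 14.5% (exact interval 6.50% to 26.7%) and 17.6% (9.70% to 28.2%) in these 2 libraries and 1.75% to 3.77% in the 4 later ones. The late difference was -2.79 ± 0.42 (log2, SE, edgeR adjusted p = 0.0038, 7.59% of 9050 rows called). With a mitochondrial limit of 5% the gate kept 5 cells in E18-ZZ and 30 in E18-DZ, against 144 to 545 in the later libraries, and the comparison could not be fitted. With only 2 early libraries, it was not called without E18-ZZ (adjusted p = 0.0834) or E18-DZ (0.167). The rise of EGFR from MYOD1+ to myocyte-like cells (1.73 ± 0.51, adjusted p = 0.010) rested on the same 2 libraries. Without E18-ZZ it was 1.33 and without E18-DZ 1.23 (adjusted p = 0.0720 and 0.0791), and in a fit of the 4 myogenic gates alone it was 0.61 (adjusted p = 0.308). Besides MYOG, the markers MYLPF, MYH3 and TNNC2 of the gate were lower in the 2 E18 sums, before scaling. MYLPF was at 4334 to 4628 against 6861 to 9217 CPM later, MYH3 at 956 to 1256 against 1739 to 3101, and TNNC2 at 866 to 987 against 1539 to 1765. The remaining markers overlapped: MYMK was at 988 to 1162 against 1018.5 to 1320 CPM later, and CHRNA1 at 193 to 346 against 291 to 387. The part of the markers in the EGFR difference was not tested.

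**Figure D4:**
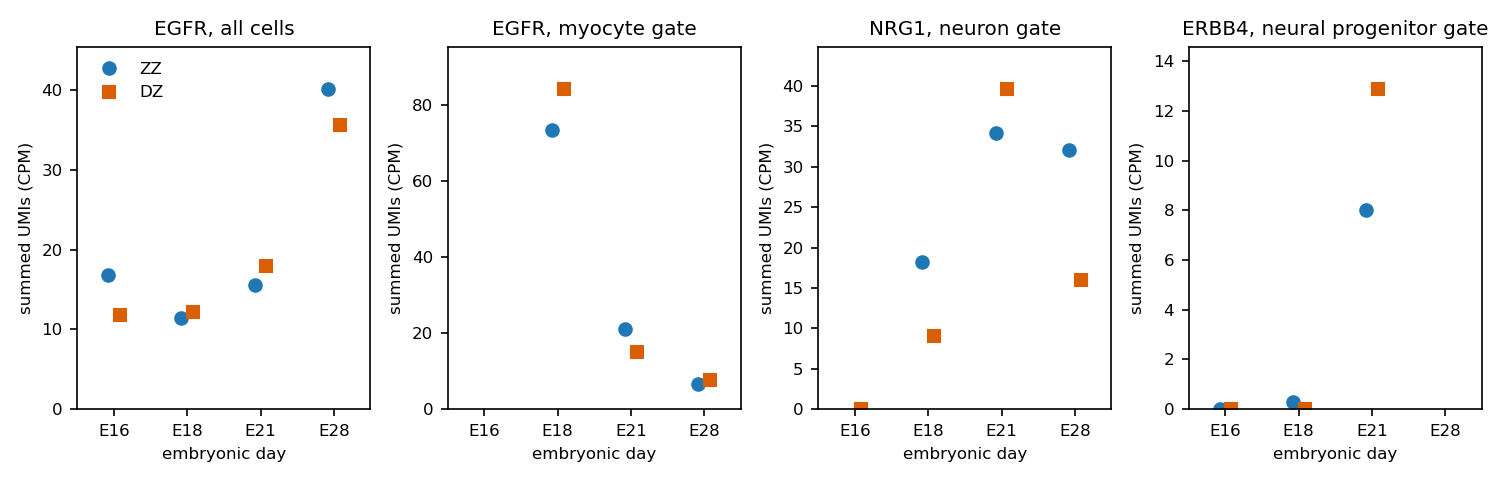
Level (CPM) by embryonic day of EGFR in all cells and in the myocyte-like gate, of NRG1 in the neuron-like gate and of ERBB4 in the neural progenitor-like gate, circles for ZZ and squares for DZ, 1 point per library. Days with no point had fewer than 20 cells of the gate; EGFR is highest at E28 over all cells and at E18 in myocyte-like cells.

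ERBB4 UMIs of neural progenitor-like cells came mostly from the E21 libraries. The 4 earlier libraries held 0, 0, 1 and 0 UMIs of it in 114 to 494 cells each, and the E21 libraries held 16 UMIs in 425 cells (8.01 CPM, ZZ) and 6 in 78 cells (12.9 CPM, DZ). The share of thinned cells with a UMI was highest in E21-ZZ, at 2.22% (exact interval 1.02% to 4.17%), and was 0.21% (0.01% to 1.15%) in E18-ZZ. Over the 6 libraries of this gate 11 of 1643 thinned cells had a UMI, and the E21-DZ share rests on at most 78 cells. ERBB4 passed the filter on low counts through the E21 sums in which it was high, not passing without E21-ZZ, so no test of it is given, in a gate where 14.5% of 9181 rows were called between late and early libraries. Among the 5 gates with at least 3 libraries a side, 3 of 12 member tests were called, all downward. In neuron-like cells ERBB2 fell from 18.9 to 4.59 CPM (-2.02 ± 0.59 log2, adjusted p = 0.048) and the row named ERBB3 from 709 to 376 CPM (-0.99 ± 0.22, adjusted p = 0.018), with 13.8% of 8735 rows called. The mean log2 CPM of the 51 ribosomal protein genes fell in these sums too, by 0.66, and relative to it the row was at -1.95 ± 0.26 (SD, n = 3) early and -2.20 ± 0.36 (n = 4) late, with overlapping ranges. In endothelial-like cells the row named ERBB3 fell from 884 to 569 CPM (-0.65 ± 0.16, adjusted p = 0.013, 26% of 9285 rows called). There the ribosomal mean fell by 0.33, and relative to it the row was at -1.92 ± 0.23 early and -2.22 ± 0.29 late (n = 4 each), again with overlapping ranges. None of the 3 was called without both E16 libraries (adjusted p = 0.121, 0.0645 and 0.100), the last was not called without E16-DZ either (0.0543), and ERBB2 was not without E21-ZZ, E21-DZ or E28-DZ (0.0757 to 0.108). The rise of NRG1 in neuron-like cells, from 9.09 to 30.5 CPM, was 1.48 ± 0.54 and missed the threshold (adjusted p = 0.096). It was called with no doublets removed (adjusted p = 0.0489), with no filter on low counts (0.0127), without E28-DZ (0.0438) and without both E28 libraries (0.0162). In neural crest and glial-like cells (27.6% of 8243 rows called) and erythroid-like cells (1.83% of 3604), 0 members were called, with ERBB2 at 33.9 CPM early and 47.1 late in the former (0.52 ± 0.22, adjusted p = 0.091). That ERBB2 difference was called with stricter gates (0.82, adjusted p = 0.0373) and without E28-ZZ (0.64, adjusted p = 0.0348). Likewise 0 members were called in MYF5+ (5.14% of 9383), PAX3+ (3.81% of 7668) and sclerotome-like cells (5.07% of 8050). EGFR in sclerotome-like cells was higher late by 1.53 ± 0.57 (adjusted p = 0.160), and it was called with no filter on low counts (1.46, adjusted p = 0.0094) and without E21-ZZ (2.14, adjusted p = 0.0288). In neural progenitor-like cells EGFR and ERBB2 were not called, nor was the row named ERBB3 (-0.47 ± 0.19, adjusted p = 0.112), which was called lower without E18-DZ (-0.61, adjusted p = 0.0056) and with no filter on low counts (-0.52, adjusted p = 0.0251).

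Between breeds, 0 of the 5 members was called over whole libraries with stage as a block, and 0 of all 15119 rows tested was called (0%). By edgeR, 918 rows had an unadjusted p under 0.05, and DESeq2 called 57 rows. The DZ libraries differed from the ZZ libraries by -0.10 ± 0.13 (log2, SE) in EGFR, 0.01 ± 0.13 in ERBB2, 0.08 ± 0.18 in the row named ERBB3, 0.14 ± 0.38 in ERBB4 and 0.13 ± 0.23 in NRG1.

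Cells with a UMI of the row named ERBB3 did not differ detectably in ERBB2 from cells without one. The row had a UMI in 74.5% to 88.1% of the thinned cells of a library, and its UMIs may be of RPS26. Cells without a UMI may still hold its RNA, so this split cannot show whether ERBB2 goes with ERBB3. Shares of cells with an ERBB2 UMI were averaged over the gates of a library with at least 20 thinned cells of each kind, then over libraries. They were 4.42% with the row and 4.72% without, a difference of -0.29 ± 1.24 percentage points (SD, n = 8 libraries). The share with the row was higher in 4 of 8 (exact two-sided sign-flip permutation p = 0.547). With a mitochondrial limit of 5% in place of 10% the difference was -1.14 points (exact permutation p = 0.0391). In the 9 gates with at least 4 such libraries, which do not include the neural crest and glial-like gate, the difference ran from -5.47 ± 6.95 (n = 4) in myocyte-like cells to 1.98 ± 8.67 (n = 5) in neural progenitor-like cells, with the smallest p that 4 or 5 libraries allow at 0.125 and 0.0625.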

How the data were processed

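Single-cell RNA of 8 libraries was sequenced with 10x Chromium 3′ v3 chemistry. The deposited matrices hold raw UMI counts, for which the authors ran Cell Ranger (3.1.0 for both E16 libraries, 3.0.2 for the others, per the file headers) on Sscrofa11.1 with Ensembl release 98, filtered to barcodes called as cells and not normalized. The RefSeq sequences and positions are on the same build, Sscrofa11.1.

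Barcodes with under 200 genes, over 30000 UMIs or over 10% of UMIs on 13 mitochondrial genes were removed (82394 of 90688 remained). Scrublet (scanpy 1.11.5) scored doublets, and the highest scores were removed at 0.8% per 1000 barcodes (8247), since its automatic threshold marked 325. Cells were gated by 81 marker symbols (9 of 90 fixed have no row). UMIs were summed per gate and library (at least 20 cells) and tested with edgeR 4.0.16 in R 4.3.3 (TMM, default filter on low counts, quasi-likelihood, Benjamini-Hochberg over all rows, threshold 0.05), each gate against the mean of the others with library as a block, late against early libraries, and DZ against ZZ with stage as a block. Stage was tested within gates with at least 3 libraries a side, and, as an addition after seeing the data, with 2. DESeq2 1.42.0 was an alternative. Shares of cells were compared after thinning to 2000 UMIs, with exact tests over libraries. Intervals and limits cover counting error only.

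On counts simulated from these libraries, edgeR recovered 79.4% of the genes changed by 1 on the log2 scale and 98.9% of those changed by 2 for neural crest and glial-like cells against the other gates (10889 genes), and 20.2% and 96.1% for late against early whole libraries (14719 genes). All simulated sums shared the same mean profile and a fixed dispersion, with no effect of library or stage. These rates check the fits and do not give the power in the real sums. The members, gates and lists were chosen with earlier results of these data known. Genes were named as members, listed pathway genes, gate markers, or by likeness (5 each for the row named ERBB3 and for NRG1, 3 for the others).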

Additional observations from a re-analysis of the deposited data

Results flagged for a closer look

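In 71 groups of 4 early or 4 late libraries, of genes and gates with at least 20 UMIs over all their libraries, 4 libraries stood far from the other 3, where about 1 group in 20 would be marked so by chance. ERBB2 in the myocyte-like cells of E21-ZZ was at 59.4 CPM (85 UMIs), against 38.9 to 39.5 CPM in the other late libraries. The row named ERBB3 in the erythroid-like cells of E18-DZ was at 1166 CPM, against 1506 to 1534 CPM in the other early libraries. ERBB4 in the neural progenitor-like cells of E18-ZZ was at 0.27 CPM, which is 1 UMI, against 0 in the other early libraries, and a single UMI beside sums at 0 always stands apart by this measure. EGFR over all cells of E16-ZZ, the library with 39.2% of its barcodes over the mitochondrial limit, was at 16.8 CPM, against 11.4 to 12.2 CPM in the other early libraries.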

How the results depend on the processing

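Of the 47 called differences of single members, 0 reversed under any alternative that could be fitted. The 47 include the calls of ERBB4, from which nothing is read. In the fits that kept all libraries or left out a whole stage, 281 values kept their direction and side of the threshold and 34 kept their direction but lost the call, and in the fits that left out 1 library these counts were 299 and 38. The 37 calls of 75 member tests between gates became 26 of 48 with stricter gates, 28 of 56 with a mitochondrial limit of 5% and 30 to 37 under the other alternatives that kept all libraries. Over the 3 steps between myogenic gates and the comparison of neural crest and glial-like with myogenic gates, 4 of 20 member tests were called. A fit of the myogenic gates alone has the 3 steps and 3 members only, and 2 of its 9 tests were called. The 1 call between late and early whole libraries became 2 with DESeq2, 0 without both E16 libraries and 0 to 1 without 1 library, and the called member was not EGFR in every one of these fits. The 3 calls of 12 tests within gated types became 5 of 16 with no doublets removed, 5 of 27 without both E28 libraries, 0 of 6 with a mitochondrial limit of 5% and 0 to 4 without 1 library (8 to 12 tests). EGFR in late against early whole libraries (1.07) was 1.22 without both E16 libraries (adjusted p = 0.142), 0.38 without both E28 libraries (0.240) and 0.766 to 1.30 without 1 library, and its difference in myocyte-like cells was -3.23 to -2.48 without 1 library. The difference in ERBB2 between cells with and without the row named ERBB3 was 0.0105 percentage points with no doublets removed and 0.459 with stricter gates, both of the other sign, and -1.14 with a mitochondrial limit of 5%. The cause of these changes was not tested.

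Counts of all rows called moved more than the members did. A mitochondrial limit of 5% gave 1345 rows for neural crest and glial-like (2852 in the fit as reported), 1320 for epithelial-like (2528), 1361 for endothelial-like (5764), 1073 for MYF5+ (1652) and 251 for PAX3+ cells (753) against the other gates, 54 for MYF5+ against PAX3+ (112) and 1913 for neural crest against myogenic gates (3294). Without the library block the counts were 1065 for MYOD1+ (1668), 1011 for MYF5+, 44 for MYOD1+ against MYF5+ (68) and 1077 for myocyte-like against MYOD1+ cells (2034). MYF5+ against PAX3+ gave 58 with DESeq2, MYOD1+ against MYF5+ gave 366 with stricter gates, and the myogenic gates alone gave 60, 166 and 3080 for the 3 steps in order. Late against early whole libraries (5048) gave 1338 without both E16 and 2552 without both E28 libraries. DZ against ZZ (0) gave 57 with DESeq2, 1 with no doublets removed and 1 with no filter on low counts. Leaving out 1 library gave 856 to 1230 for sclerotome-like, 743 to 1793 for MYOD1+, 1060 to 1678 for MYF5+ and 455 to 813 for PAX3+ cells, 43 to 112, 32 to 68 and 1351 to 2007 for the 3 myogenic steps, and 2965 to 4680 for late against early whole libraries. Over all alternatives, late against early within gates ranged from 666 to 2886 in connective tissue-like (2095), 742 to 2946 in neural crest and glial-like (2275), 862 to 3032 in endothelial-like (2415), 684 to 1973 in neuron-like (1208), 1 to 296 in erythroid-like (66), 24 to 1354 in myocyte-like (687), 1 to 1398 in MYF5+ (482), 33 to 683 in PAX3+ (292), 32 to 1107 in sclerotome-like (408) and 169 to 1753 in neural progenitor-like cells (1327).

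Libraries could not be paired by replicate number, since each stage and breed has 1 library. Blocks were the library between gates and the stage between breeds, and without them 30 of 75 member tests between gates and 0 members between breeds were called. Each value of a stage and breed rests on 1 pool of 5 embryos. ERBB4 and NRG1 had 0 UMIs in many sums, so that their differences from other gates rest on few UMIs. The comparison with ribosomal protein genes and the stage tests with 2 libraries a side were chosen after seeing the data.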
